A study of Mus musculus with 98 samples.

Results

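Egr1, Egr2, Egr3, Egr4, Nr4a1, Nr4a2 and Nr4a3 are 7 activity-regulated transcription factor genes, taken here by name from the 24754 gene symbols that all 6 count tables share. They were followed in all 98 RNA sequencing libraries of the series, in 22 groups, as read counts scaled to library size (CPM) and their log2 values. The Egr genes encode zinc finger proteins that bind GC-rich DNA, and the Nr4a genes encode nuclear receptors that act without a known natural ligand. Both families belong to the immediate early genes: calcium entry and kinase signalling after neuronal firing switch them on within minutes, through factors such as CREB and SRF that are already bound to DNA. In the hippocampus they are used as marks of recent activity, and Egr1 and the Nr4a receptors are known for roles in memory consolidation.

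The study asked what raising the acetyl-CoA synthetase ACSS2 does in neurons with and without tau pathology. Primary hippocampal neurons of CD1 mouse embryos received a PhP.eB virus, either upACSS2 or the control vector, on culture day 5 for 48 hours, then hAD-tau or PBS on day 7. They were collected unstimulated on day 9 or day 21, or stimulated on day 21, with 3 libraries in each of these 12 groups. A further culture set without virus was collected on day 21 after hAD-tau (4 libraries) or PBS (3 libraries). The stimulus is not named in the labels used here.

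The mice were all male and received the upACSS2 or vector virus, at a labelled dose of 1.5e+11 viral genomes in aged, 1.2e+11 in 10-month and 1.5e+10 in PS19 mice. C57BL6 mice aged 22-23 months were taken 2 months after injection (12 a group) and 30 minutes after a remote recall test. C57BL6 mice aged 10 months were taken 2 weeks after injection and 30 minutes after fear conditioning (6 upACSS2, 5 vector). PS19 mice, which carry a human mutant tau transgene under the mouse prion promoter, were injected at 2.5 months and taken 1 or 6 months later, at 3.5 or 8.5-9 months of age (5 a group), 30 minutes after 24-hour context recall. Every mouse had therefore been in a behavioural test, and there is no home-cage group among these libraries. The tissue was whole hippocampus in the aged mice and dorsal hippocampus in the 10-month mice. In PS19 mice it was labelled whole hippocampus for the 1-month upACSS2 group and dorsal hippocampus for the other 3 groups, and at 1 month the effect of virus and that of the dissected region therefore cannot be told apart. For the PS19 mice at 1 month the treatment entry of the labels also contradicts the titles in the upACSS2 group and in 1 vector mouse; titles were used throughout.

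Library totals ran from 5075100 to 39985500 counts. In the neurons Acss2, the gene the virus raises, was at 1487 to 5460 CPM in upACSS2 libraries and at 40.1 to 57.8 CPM in vector libraries. In mice the 2 virus groups lay close together or overlapped (46.6 to 61.4 against 39.9 to 53.6 CPM in aged mice, 49.8 to 59.1 against 42.2 to 48.7 CPM at 10 months). In PS19 mice with upACSS2 Acss2 was at 145, 1179, 315, 59.6 and 1464 CPM at 1 month (vector 51.6 to 65.5 CPM) and at 236, 99.7, 45.9, 55.3 and 110.1 CPM at 6 months (vector 43.6 to 55.9 CPM), so mouse 4 at 1 month and mice 3 and 4 at 6 months lay within the vector range. The summed CPM of 7 neuronal markers was 3202 to 9363 in the cultures and 7265 to 15293 in the mice, and the cultures given virus held microglial markers at 2.15 to 8.60 CPM and endothelial markers at 0.123 to 1.15 CPM in sum. In the cultures nothing in the labels says that the libraries of a group came from separate cultures, so p-values there measure the spread between libraries.

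Stimulation of day 21 neurons was the comparison in which these genes moved most. All 7 genes rose in all 4 conditions, 28 of 28 tests at an edgeR quasi-likelihood p, Benjamini-Hochberg adjusted over all genes, under 0.05. Among all 15108 genes tested the share called in either direction was 7.14% in vector PBS, 2.83% in vector tau, 3.7% in upACSS2 PBS and 2.35% in upACSS2 tau neurons, and the share called higher was 4.65%, 2.38%, 2.37% and 1.74%. The median log2 fold change of the 7 genes was 5.13, 4.42, 4.01 and 4.04 in the same order, where the median over all genes was -0.03, -0.02, -0.01 and -0.01. The stimulated and unstimulated libraries were deposited in separate tables, so stimulation and any difference between those sets cannot be told apart.

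Among the Egr genes Egr2, known from myelinating glia and hindbrain patterning as well as from active neurons, changed by the largest factor from the lowest start. In vector PBS neurons Egr2 was at 0.883, 2.58 and 1.63 CPM unstimulated and at 97.3, 194 and 154 CPM stimulated. Its log2 fold change was 6.39 (standard error, SE, 0.70), or 84.1-fold, with an edgeR adjusted p of 3.21e-06. Egr4, a neuronal member of the family, was at 21.2, 13.5 and 10.8 CPM unstimulated and 487, 514 and 627 CPM stimulated, 35.3-fold (log2 5.14, SE 0.29). Egr1, the most widely used activity marker of the 4, went from 75.7, 91.0 and 36.9 CPM to 887, 896 and 1049 CPM, 13.7-fold (log2 3.77, SE 0.40). Egr3, a factor known for its part in muscle spindle development and in memory, went from 127, 54.2 and 32.7 CPM to 631, 502 and 663 CPM, 8.27-fold (log2 3.05, SE 0.43). The edgeR adjusted p was 2.07e-10 for Egr4, 2.34e-06 for Egr1 and 8.09e-05 for Egr3. For each of these genes every stimulated library was above every unstimulated one.

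Among the receptors Nr4a2, known for its need in dopamine neurons, was lowest before stimulation. It was at 8.53, 4.46 and 6.06 CPM in unstimulated vector PBS neurons and at 453, 334 and 450 CPM after stimulation, 64.1-fold (log2 6.00, SE 0.42, edgeR adjusted p 3.28e-09). Nr4a1, the receptor also known as Nur77, went from 27.9, 24.1 and 17.6 CPM to 834, 764 and 873 CPM, a log2 fold change of 5.13 (SE 0.35, edgeR adjusted p 2.87e-09). Nr4a3, the receptor also known as NOR1, started from 183, 104 and 84.2 CPM and reached 964, 731 and 954 CPM, 7.02-fold (log2 2.81, SE 0.31, edgeR adjusted p 3.11e-06). Nr4a3 was thus the receptor with the highest unstimulated level and the smallest factor. The stimulated and unstimulated libraries of all 3 receptors were apart in each of the 4 conditions.

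After stimulation the 7 genes stood closer together than before. Per kilobase of annotated exon, the median over the 12 stimulated libraries was 227 CPM for Egr4, 218 for Nr4a1, 197 for Egr1, 122 for Nr4a3, 104 for Egr3, 83.7 for Nr4a2 and 41.6 for Egr2. Over the 12 unstimulated day 21 libraries it was 31.0 CPM per kilobase for Nr4a3, 19.6 for Egr3, 15.7 for Egr1, 11.8 for Egr4, 6.93 for Nr4a1, 1.66 for Nr4a2 and 0.397 for Egr2. Lengths came from GENCODE, while the annotation behind the counts is not given in the sources used here, so this order is approximate. Spread between libraries was also smaller after stimulation for 6 of these genes: the highest over the lowest library was 1.51 in stimulated and 4.66 in unstimulated neurons for Egr1, and 1.38 against 4.33 for Nr4a1. Nr4a2 was the exception, at 4.59 against 4.16.

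**Figure D1:**
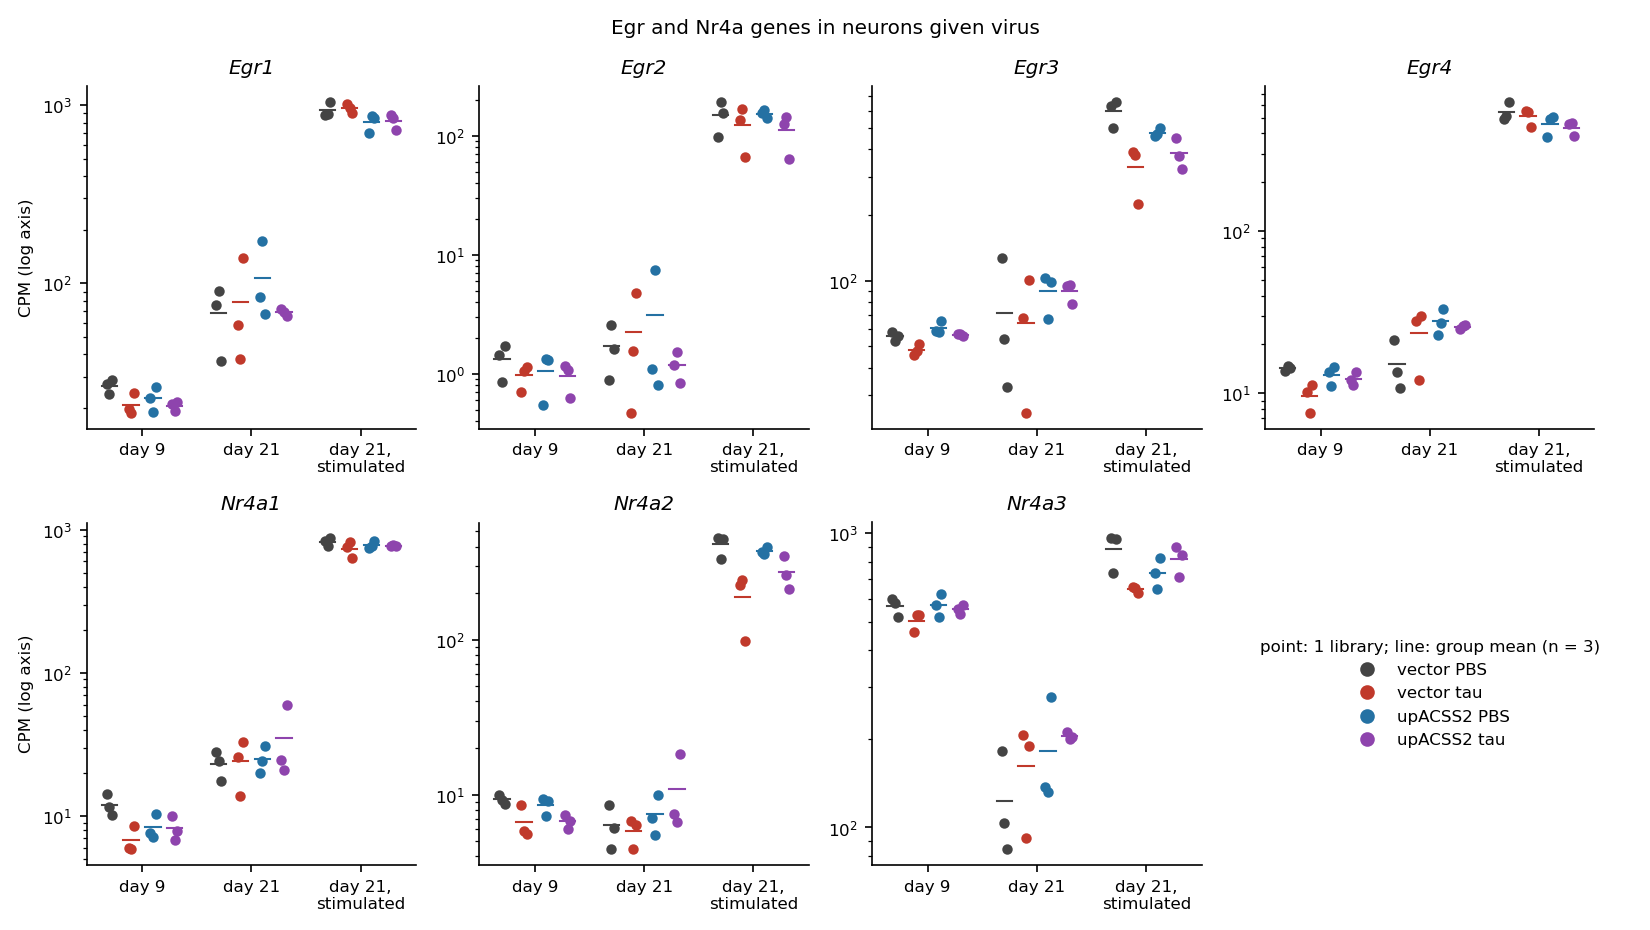
CPM on a log axis of the 7 genes in the 36 libraries of neurons given virus, 1 panel a gene. Points are libraries and lines the mean of 3, grouped by day 9, day 21 and stimulated day 21. Every stimulated library lies above every unstimulated day 21 library, and Nr4a3 alone is higher on day 9 than on day 21 in all 4 conditions.

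The estimated log2 response to stimulation was smaller with upACSS2 or tau for most of the genes, and no difference passed the test. For upACSS2 against vector in PBS neurons the difference of log2 fold changes was negative for all 7 genes, from -1.13 to -0.19, and 0 of 7 were called where 0% of all genes were. Egr4 was at -1.13 (SE 0.35), with an unadjusted p of 0.00417 and an edgeR adjusted p of 0.707, and was the only one of the 7 under an unadjusted 0.05, where 6.78% of all genes were. For tau against PBS with the vector all 7 were negative too, from -1.02 for Nr4a2 to -0.18 for Egr1, and 0 of 7 were called against 0% of all genes, with 0 of 7 under an unadjusted 0.05. For upACSS2 against vector in tau neurons 6 of 7 were negative and 0 of 7 were called against 0% of all genes. DESeq2 and limma voom called 0 of the 21 as well. The first 2 of these differences use the same vector PBS libraries. A difference can come from either state, and each state was also fitted alone. For upACSS2 in PBS neurons the median log2 fold change of the 7 was 0.56 unstimulated and -0.23 stimulated. For upACSS2 in tau neurons these medians were 0.35 and 0.07, and for tau with the vector 0.20 and -0.26. These medians carry no test, and the state from which the differences came was not tested.

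The pathway around the 7 genes moved with stimulation unevenly. Of 16 other immediate early transcription factors 13, 13, 13 and 12 rose in vector PBS, vector tau, upACSS2 PBS and upACSS2 tau neurons, with Fosb, an AP-1 subunit, at a mean of 772 against 4.81 CPM and Klf4 at 201 against 1.19 CPM in vector PBS. Of 20 later response genes and effectors 18, 16, 12 and 13 rose, among them the phosphatase gene Dusp1 (434 against 14.3 CPM in vector PBS). Of 21 upstream factors, the kinases, CREB family and SRF partners, 5, 1, 1 and 0 rose, with Srf at 79.1 against 39.9 CPM in vector PBS. Of all genes 4.65%, 2.38%, 2.37% and 1.74% were called higher, so the 1, 1 and 0 of 21 are near the background. Of 5 genes known as Egr or Nr4a targets in neurons 3, 2, 1 and 1 rose: Arc, the synaptic protein gene, in all 4 (904 against 29.4 CPM in vector PBS), Bdnf, a neurotrophin gene, in both vector conditions, and Nab2 in vector PBS. Nab2, which encodes a co-repressor of Egr proteins, was at 58.0 against 31.6 CPM there and was the only one of 5 partners and co-repressors that rose in any of the 4 conditions. None of these lists had a member that fell. Arc, Bdnf and Nab2 each stand in 2 of the lists, so every rise of a target is also counted in another list.

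Promoter sequence was looked at because the 7 genes moved together. RefSeq (GRCm38.p6) start sites were matched for 5 of the genes, 9 starts in all, 5 of them starts of Egr2 whose windows partly overlap, and the 250 bases before each were searched on both strands. The core TGACG of the site of CREB family factors was present before 7 of 9 starts and in all 5 genes, where 17.8% of 32851 starts in the table have it. The full site TGACGTCA was before 0 of 9 starts (1.55% of all starts). The variant TGCGTCA, which overlaps a core, was found in Nr4a1 alone of the 5 (1.75% of all starts), 4 times. The CArG box of SRF was found in Egr2 alone of the 5 (1.47% of all starts). Egr1 and Egr3 had no matched start and were not searched, so nothing is said of their sites. These are matches of letters and say nothing of binding. The windows below show 1 start a gene, 5′ to 3′ on the gene's strand, with exonic bases left out and these motifs in capitals.
Egr2 (chr10:67537619-67537868, plus strand): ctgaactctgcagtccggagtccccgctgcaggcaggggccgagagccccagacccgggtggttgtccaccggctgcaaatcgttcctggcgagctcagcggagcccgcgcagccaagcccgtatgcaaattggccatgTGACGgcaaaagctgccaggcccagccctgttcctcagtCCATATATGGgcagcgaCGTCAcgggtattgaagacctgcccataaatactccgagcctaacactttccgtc
Egr4 (chr6:85513590-85513839, minus strand): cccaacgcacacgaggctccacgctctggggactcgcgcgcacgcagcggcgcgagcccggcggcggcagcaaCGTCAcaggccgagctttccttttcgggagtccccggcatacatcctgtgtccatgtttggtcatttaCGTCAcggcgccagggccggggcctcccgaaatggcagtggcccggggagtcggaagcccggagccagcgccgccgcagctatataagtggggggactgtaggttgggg
Nr4a1 (chr15:101266596-101266845, plus strand): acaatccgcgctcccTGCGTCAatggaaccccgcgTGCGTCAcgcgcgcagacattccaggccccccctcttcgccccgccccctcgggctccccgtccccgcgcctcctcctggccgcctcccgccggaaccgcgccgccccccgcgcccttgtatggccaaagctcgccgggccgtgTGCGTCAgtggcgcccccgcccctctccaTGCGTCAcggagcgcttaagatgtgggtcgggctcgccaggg
Nr4a2 (chr2:57124004-57124253, minus strand): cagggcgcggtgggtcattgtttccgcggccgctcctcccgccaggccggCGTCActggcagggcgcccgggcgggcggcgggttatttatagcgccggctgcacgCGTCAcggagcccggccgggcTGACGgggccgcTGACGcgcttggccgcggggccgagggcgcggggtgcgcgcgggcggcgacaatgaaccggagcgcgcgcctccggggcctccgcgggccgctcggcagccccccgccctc
Nr4a3 (chr4:48045055-48045152, plus strand): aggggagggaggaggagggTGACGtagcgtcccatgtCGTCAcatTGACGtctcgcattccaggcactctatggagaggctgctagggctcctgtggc

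In these bases Egr2 carries the CArG box between 2 cores, Egr4 carries 2, Nr4a1 and Nr4a2 carry 4 each and the 98 bases of Nr4a3 carry 3. Nr4a3 and Egr2, with 7.02-fold and 84.1-fold changes in vector PBS neurons, both have the core.

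Between day 9 and day 21 of unstimulated culture the 7 genes did not move as 1 group. Nr4a3 fell in all 4 conditions, Egr1 and Nr4a1 rose in all 4, Egr4 rose in 3, and Egr2, Egr3 and Nr4a2 were not called in any. That is 15 of 28 tests, 11 higher and 4 lower, where 57.7%, 52.6%, 54.3% and 53.6% of all genes were called in vector PBS, vector tau, upACSS2 PBS and upACSS2 tau neurons. Of all genes 30.6%, 27.7%, 28.5% and 27.2% were called higher and 27.1%, 24.9%, 25.8% and 26.4% lower. The share is near the background, so the count itself is no result about these genes.

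Nr4a3 was at 600, 580 and 522 CPM on day 9 and at 183, 104 and 84.2 CPM on day 21 in vector PBS neurons. In upACSS2 PBS neurons it was at 572, 521 and 622 CPM and at 137, 132 and 278 CPM. Its log2 fold change was -2.20 (SE 0.29, edgeR adjusted p 2.14e-06), -1.64, -1.65 and -1.43 in vector PBS, vector tau, upACSS2 PBS and upACSS2 tau neurons. Every day 21 library was below every day 9 library, and unstimulated day 9 neurons (463 to 622 CPM) came close to stimulated day 21 neurons (625 to 964 CPM). No other member had its unstimulated day 9 level near its stimulated level: Egr1 was at 18.7 to 28.7 CPM and Nr4a1 at 5.85 to 14.3 CPM on day 9.

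Egr1 in vector PBS neurons was at 27.2, 24.1 and 28.7 CPM on day 9 and at 75.7, 91.0 and 36.9 CPM on day 21, a log2 fold change of 1.34 (SE 0.38, edgeR adjusted p 0.00479). In the other conditions it was 1.91, 2.24 and 1.74, and the days did not overlap in any of the 4. Nr4a1 in vector PBS neurons was at 14.3, 11.5 and 10.1 CPM on day 9 and at 27.9, 24.1 and 17.6 CPM on day 21, 0.93 (SE 0.34, edgeR adjusted p 0.0223), and 1.83, 1.58 and 2.08 elsewhere. The vector PBS call of Nr4a1 was lost without vector PBS replicate 1 or 2 of day 21, or replicate 2 or 3 of day 9 (edgeR adjusted p up to 0.0792). Egr4 was at 13.6, 14.8 and 14.3 CPM on day 9 and 21.2, 13.5 and 10.8 CPM on day 21 in vector PBS, which overlap, and rose by 1.28, 1.08 and 1.06 in vector tau, upACSS2 PBS and upACSS2 tau. The days overlapped for Egr2 in every condition, and Egr2 rested on 11 to 47 counts a library on day 9.

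Some day 21 groups held a library that stood apart. In upACSS2 PBS neurons replicate 2 held 172 CPM of Egr1 and 7.43 CPM of Egr2, where the other libraries of that group held 83.7 and 67.0 CPM of Egr1 and 1.11 and 0.799 CPM of Egr2. In vector tau neurons replicate 3 held 139 CPM of Egr1 against 58.3 and 37.6 CPM. Marker genes of other cells moved with culture day as well. Of 6 astrocyte markers 6, 3, 3 and 6 rose, with sums of 999.8 to 1394 CPM on day 9 and 2111 to 16890 CPM on day 21, and 3 of 4 oligodendrocyte markers rose and the other fell in every condition, with sums of 16.9 to 21.5 and 98.2 to 851 CPM. At most 1 of the 4 oligodendrocyte markers was at 0 in any day 9 library, and no astrocyte marker was. Oligodendrocyte precursor markers summed to 5.14 to 20.8 CPM on day 9 and 289 to 514 CPM on day 21. All 3 inhibitory neuron markers rose in every condition (sums of 471 to 581 and 886 to 1513 CPM). The sum of 3 CA1 pyramidal cell markers was lower on day 21 (66.7 to 92.5 and 26.9 to 45.3 CPM), with 1 marker called lower and 1 or 2 called higher. The part of these cells in the changes of the 7 genes was not tested, and in such bulk RNA fewer cells of a type and less RNA per cell cannot be told apart.

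In the wider pathway, too, counts are to be read against the 27.2% to 30.6% of all genes that were called higher and the 24.9% to 27.1% called lower. The other immediate early factors rose with day in 5, 6, 6 and 5 of 15 tested genes and fell in 1, 1, 0 and 0, with Fos, an AP-1 subunit, among those that rose (log2 fold change 1.53 in vector PBS). The later response genes rose in 9, 13, 15 and 15 of 20 and fell in 4, 4, 2 and 2; the kinase gene Sik1 was among those that fell (9.58 against 24.2 CPM in vector PBS). Among the co-repressors of Egr proteins Nab2 rose and Nab1 fell in all 4 conditions, from 16.5 to 31.6 CPM and from 69.7 to 38.3 CPM in vector PBS.

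Tau lowered most of the 7 genes in day 9 vector neurons, 2 days after it was added. There 5 of 7 fell and 4.28% of 14022 genes were called in either direction, 2.27% lower. The median log2 fold change of the 7 was -0.48 against 0.0003 over all genes, and all 7 were negative. Nr4a1 was at 14.3, 11.5 and 10.1 CPM with PBS and at 6.04, 5.85 and 8.59 CPM with tau, a log2 fold change of -0.87 (SE 0.17, edgeR adjusted p 0.00593). Egr4 was at 13.6, 14.8 and 14.3 CPM and at 10.1, 7.57 and 11.3 CPM, -0.57 (SE 0.12, edgeR adjusted p 0.0114). Nr4a2 was at 9.93, 9.29 and 8.72 CPM and at 8.54, 5.85 and 5.58 CPM, -0.50 (SE 0.14, edgeR adjusted p 0.0404). For these 3 genes every tau library was below every PBS library. Here and elsewhere such separation is a description, since the share of all genes without overlap was not counted.

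Egr3, at 58.1, 53.1 and 55.7 CPM with PBS and 45.7, 47.5 and 51.4 CPM with tau, fell by 0.22 on the log2 scale (SE 0.06, edgeR adjusted p 0.0349), also without overlap. Egr1, at 27.2, 24.1 and 28.7 CPM and 19.6, 18.7 and 24.1 CPM, fell by 0.37 (SE 0.10, edgeR adjusted p 0.0379), and its groups met at 24.1 CPM. Nr4a3 had a log2 fold change of -0.17 (edgeR adjusted p 0.0858), and Egr2, at 0.706 to 1.70 CPM, of -0.48 (edgeR adjusted p 0.445). These falls are small and hang on single libraries. Without vector tau replicate 2 none of the 7 was called, without vector PBS replicate 1 only 1 was, and without vector tau replicate 1 only 2 were. A fit over only the 6 libraries compared called 2, Egr4 and Nr4a1, and a fit that shared its spread with the noisier day 21 libraries called 0.

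In the same comparison 4 of 15 other immediate early factors and 8 of 20 later response genes fell and none rose. The 4 were Npas4, a neuron-specific activity factor (5.87 against 14.5 CPM), Fosb (1.80 against 5.41 CPM), Fos (log2 fold change -0.87) and Maff. Bdnf (70.1 against 99.4 CPM) was among the later genes. The astrocyte marker sum was 1074 to 1156 CPM with PBS and 1202 to 1387 CPM with tau, with 1 of 6 markers called higher. Its part was not tested.

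With upACSS2 none of the 7 was called for tau on day 9, where 0.349% of all genes were. All 7 log2 fold changes were again negative, from -0.36 for Nr4a2 to -0.02 for Nr4a1, and Nr4a2 was under an unadjusted 0.05, as were 9.05% of all genes. Nr4a1 was at 7.68, 7.12 and 10.3 CPM with PBS and at 10.1, 6.77 and 7.83 CPM with tau, which overlap. The difference of the tau effect between upACSS2 and vector was 0.85 for Nr4a1 (SE 0.23, unadjusted p 0.0014, edgeR adjusted p 0.0706) and 0.48 for Egr4 (SE 0.17, edgeR adjusted p 0.130). It was positive for all 7 genes, and 0 of 7 were called against 0.663% of all genes, so the tau effects were not shown to differ. That test shares the vector PBS libraries with the tau comparison.

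With upACSS2 in day 9 PBS neurons 1 of 7, Nr4a1, was called, lower, where 10.2% of all genes were called, 5.35% lower, so the count is near the background. Over PBS and tau neurons together the count of 1 became 0 with all 24 unstimulated libraries in the fit, 2 with DESeq2, 2 with the replicate block and 4 with no filter on low counts. Nr4a1 was at 14.3, 11.5 and 10.1 CPM with vector and at 7.68, 7.12 and 10.3 CPM with upACSS2, a log2 fold change of -0.56 (SE 0.15, edgeR adjusted p 0.0236), and the groups overlapped. The call was lost without vector PBS replicate 1 or without upACSS2 PBS replicate 1 or 2. In day 9 tau neurons 0 of 7 were called (0.692% of all genes). There Egr3 was at 45.7, 47.5 and 51.4 CPM with vector and 57.2, 56.8 and 55.9 CPM with upACSS2, without overlap, at 0.23 (SE 0.06, edgeR adjusted p 0.0600). DESeq2 put Egr3 past the threshold, at an adjusted p of 0.0427.

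On day 21 without stimulation none of the 7 was called for tau or for upACSS2. For tau 0% of all genes were called in vector and in upACSS2 neurons, and 0 and 0 of the 7 were under an unadjusted 0.05. For upACSS2 0.0137% and 0.0273% of all genes were called in PBS and tau neurons, and 1 and 1 of the 7 were under an unadjusted 0.05: Egr4 at 0.87 (SE 0.31) in PBS and Nr4a2 at 0.91 (SE 0.39) in tau neurons. Of all genes 16.6% and 10.7% were under that p, so these counts are near the background. Egr4 was at 21.2, 13.5 and 10.8 CPM with vector and 23.0, 27.1 and 33.2 CPM with upACSS2 in PBS neurons, which did not overlap (edgeR adjusted p 0.227). DESeq2 and limma voom called 0 of 7 in all 4 comparisons, whereas a fit over all 24 unstimulated libraries called Egr4 for upACSS2 in PBS neurons (edgeR adjusted p 0.0326). For upACSS2 by tau 0 of 7 were called where 0% of all genes were.

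In stimulated neurons with the vector, tau lowered Egr3 and Nr4a2, 2 of 7 where 3.02% of 14939 genes were called, 1.76% lower. Egr3 was at 631, 502 and 663 CPM with PBS and at 390, 378 and 224 CPM with tau, a log2 fold change of -0.86 (SE 0.19, edgeR adjusted p 0.0414). Nr4a2 was at 453, 334 and 450 CPM and at 226, 244 and 98.7 CPM, -1.12 (SE 0.28, edgeR adjusted p 0.0494). Both genes had every tau library below every PBS library, and tau replicate 3 was the lowest for both. Nr4a3, at 964, 731 and 954 CPM and 658, 651 and 625 CPM, did not overlap either, at -0.45 (SE 0.12, edgeR adjusted p 0.0611). DESeq2 and the fit with replicate number as a block called Nr4a3 too (adjusted p 0.0131 and 0.0306). Egr1 (0.03), Egr4 (-0.09) and Nr4a1 (-0.16) were near 0 on the log2 scale, with overlapping libraries.

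The Egr3 and Nr4a2 calls sit at the threshold. limma voom and a fit over only the 6 libraries called none of the 7, and in 8 of 12 fits that left out 1 library none was called: vector PBS replicate 1 or 3, vector tau replicate 1 or 3, upACSS2 PBS replicate 1 or 3, and upACSS2 tau replicate 2 or 3. Without upACSS2 tau replicate 1 only Egr3 was called, and without vector PBS replicate 2 the count was 3. Other cells moved with tau in these libraries. The astrocyte marker sum was 4377 to 7405 CPM with PBS and 1226 to 3005 CPM with tau, with 2 of 6 markers called lower, a median log2 fold change of -0.90 and none at 0. The sum of 3 dentate granule cell markers was 274 to 329 and 178 to 244 CPM, with 1 called lower. Inhibitory neuron markers were at 1114 to 1458 and 915 to 999 CPM, CA1 pyramidal cell markers at 35.5 to 38.7 and 43.0 to 45.3 CPM and microglial markers at 2.94 to 3.77 and 5.42 to 7.33 CPM, with none of their genes called. Their part in the Egr3 and Nr4a2 values was not tested.

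With upACSS2 none of the 7 was called for tau in stimulated neurons (0.208% of all genes), and 0 of 7 were under an unadjusted 0.05. Egr3 was at 462, 471 and 500 CPM with PBS and 452, 374 and 326 CPM with tau, -0.31 (SE 0.19), and Nr4a2 at 367, 360 and 398 and at 346, 261 and 214 CPM, -0.46 (SE 0.27). Both still lay below their PBS libraries without overlap. The difference of the tau effect between upACSS2 and vector was 0.54 for Egr3 (SE 0.27), 0.67 for Nr4a2 (SE 0.39) and 0.61 for Nr4a3 (SE 0.18, unadjusted p 0.00462). Its edgeR adjusted p was 0.375, 0.445 and 0.233, and 0 of 7 were called against 0% of all genes. For upACSS2 against vector in stimulated neurons 0 of 7 were called in PBS (0.208% of all genes) and in tau (0.937%), with 1 and 2 under an unadjusted 0.05, near the 15.9% and 20.4% of all genes that were. Egr1 was below the vector in both, at 695, 866 and 848 against 887, 896 and 1049 CPM in PBS and 877, 846 and 730 against 1018, 964 and 907 CPM in tau neurons. Its log2 fold change was -0.23 and -0.24 (edgeR adjusted p 0.313 and 0.239). Nr4a3 in tau neurons was above the vector without overlap, at 896, 712 and 844 against 658, 651 and 625 CPM, 0.34 (SE 0.12, edgeR adjusted p 0.151). Egr3 in PBS neurons was below it without overlap, at 462, 471 and 500 against 631, 502 and 663 CPM, -0.33 (SE 0.19, edgeR adjusted p 0.409).

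In neurons that had no virus tau gave 0 of 7 calls where 0% of 16341 genes were called, and 1 of 7, Egr1, was under an unadjusted 0.05, near the 13.9% of all genes that were. Egr1 was at 182, 151 and 64.0 CPM with PBS and at 219, 266, 335 and 424 CPM with tau, 1.24 (SE 0.38, edgeR adjusted p 0.319), without overlap. Egr2 was at 4.89, 3.95 and 1.12 CPM and at 2.91, 4.15, 11.5 and 9.83 CPM, 1.15 (SE 0.65), with overlap. PBS replicate 3 stood apart from the other PBS libraries: it was lowest in Egr1 and Egr2 and highest in the other 5 genes, with Nr4a3 at 115 against 31.8 and 36.0 CPM and Nr4a1 at 48.8 against 17.4 and 21.3 CPM. Its astrocyte marker sum was 1056 CPM where the other libraries of the set held 4455 to 8897 CPM. Some marker sums differed between the whole groups without overlap. Inhibitory neuron markers were at 806 to 1603 CPM with PBS and 341 to 665 CPM with tau. CA1 pyramidal cell markers were at 42.5 to 70.2 and 25.1 to 36.4 CPM. Oligodendrocyte precursor markers were at 14.2 to 583 and 855 to 1558 CPM. The other marker sums overlapped, with microglial markers at up to 92.7 CPM with PBS and 186 CPM with tau. The part of these cells and of PBS replicate 3 in the values was not tested.

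**Figure D2:**
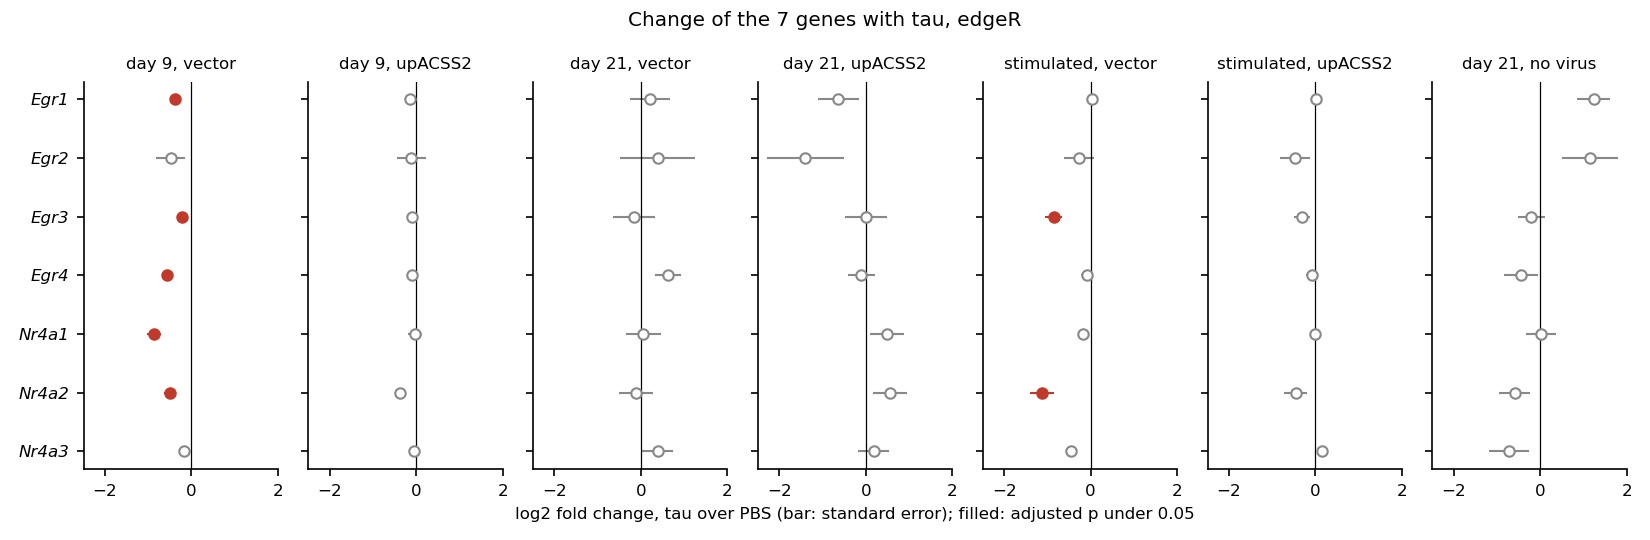
Log2 fold change of the 7 genes with tau over PBS in 7 neuron comparisons, with the standard error as a bar; filled points passed an edgeR adjusted p under 0.05. Called falls are 5 in day 9 vector neurons and 2 in stimulated vector neurons; open points did not pass.

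In mice taken 30 minutes after a behavioural test upACSS2 changed none of the 7 genes past the threshold. The count was 0 of 7 in aged mice, 10-month mice, PS19 mice at 1 month and PS19 mice at 6 months, and 0% of all genes were called in each, also by DESeq2 and limma voom for the 7. At an unadjusted p under 0.05 it was 0, 4, 0 and 1 of 7, where 5.58%, 8.83%, 2.92% and 14.1% of all genes were. The 1 of 7 at 6 months is near that background. The 4 of 7 in 10-month mice is not a count of independent results, since most of the 7 genes varied together between mice, as given below. In the 10-month and PS19 mice the count of adjusted calls stayed at 0 with each mouse left out in turn, including the PS19 upACSS2 mice whose Acss2 was in the vector range. With 0% of all genes called, Acss2 itself was not called in any of the mouse sets either. The 0 of 7 therefore does not show that raised Acss2 leaves the 7 genes unchanged. In aged mice the log2 fold changes lay between -0.09 and 0.04, with the smallest SE, 0.08, for Egr3. Egr1 in PS19 mice at 1 month was at 246, 176, 132, 132 and 274 CPM with upACSS2 and at 153, 140, 148, 257 and 178 CPM with the vector, which overlap. In PS19 mice the log2 fold changes lay between 0.02 and 0.39 at 1 month and between -0.37 and 0.15 at 6 months.

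In 10-month mice all 7 were on the higher side with upACSS2, from 0.28 for Nr4a3 to 0.63 for Egr2, with a median of 0.34 against -0.01 over all genes. Egr4 was at 59.5, 67.7, 70.5, 72.0, 72.4 and 84.2 CPM with upACSS2 and at 29.8, 37.9, 46.4, 55.6 and 78.5 CPM with the vector, 0.53 (SE 0.18, edgeR adjusted p 0.518). Nr4a2 was at 65.1, 68.5, 73.9, 74.3, 74.5 and 83.1 CPM with upACSS2 and at 40.2, 48.1, 57.8, 59.5 and 82.3 CPM with the vector, 0.36 (SE 0.14, edgeR adjusted p 0.537). The groups overlapped for all 7 genes. Over the 55 mice, with group means taken off, Pearson r with Egr1 was 0.78 to 0.96 for Egr2, Egr3, Egr4 and Nr4a1. It was 0.30 for Nr4a2 and 0.01 for Nr4a3. The genes are therefore not independent observations, and all 7 on the higher side does not amount to 7 separate results. Vector mouse 5 held 360 CPM of Egr1 where the other vector mice held 120 to 188 CPM, and it was the highest vector mouse for every one of the 7 genes except Nr4a3, for which mouse 3 was.

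Between 1 and 6 months none of the 7 was called in PS19 mice, where 7.46% of all genes were called with the vector and 0.0442% with upACSS2. With upACSS2 the dissected region differs between the 2 times by the labels, so time and region cannot be told apart there or in the test of upACSS2 by time. Nr4a3 had log2 fold changes of -0.30 (SE 0.22) and -0.35 (SE 0.22). For upACSS2 by time 0 of 7 were called against 0% of all genes, and Nr4a2 alone was under an unadjusted 0.05, as were 12.3% of all genes (-0.47, SE 0.22, edgeR adjusted p 0.397). Nr4a2 at 6 months was at 28.7, 49.6, 33.8, 42.0 and 38.1 CPM with upACSS2 and at 45.3, 49.0, 40.7, 54.5 and 58.9 CPM with the vector, which overlap.

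**Figure D3:**
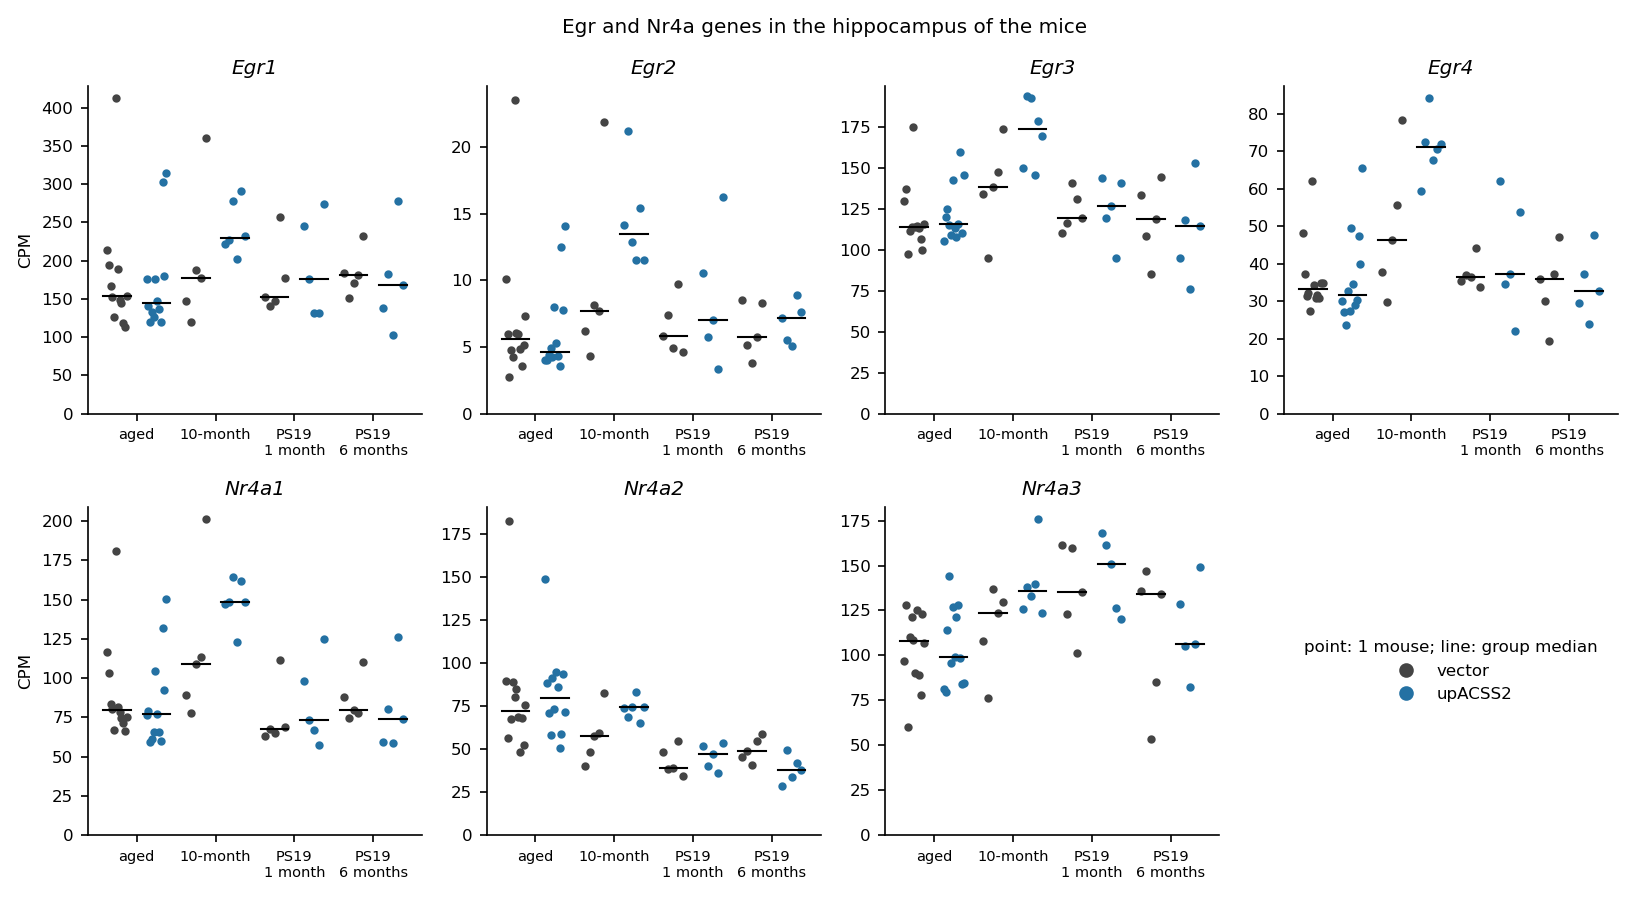
CPM of the 7 genes in 55 mice, 1 panel a gene; points are mice (dark grey vector, blue upACSS2) and lines group medians. The virus groups overlap for every gene, and single mice, such as 10-month vector mouse 5 and aged vector mouse 6, stand high in several genes.

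Differences between mice of 1 group were larger than those between virus groups, and they ran together in 5 of the genes. In aged mice Egr1 spanned 114 to 413 CPM (median 153) with the vector and 119 to 314 CPM (median 144) with upACSS2. Nr4a1 spanned 66.6 to 181 CPM (median 79.5) and 59.6 to 151 CPM (median 76.9). Vector mouse 6 was the highest of its group in Egr1, Egr2, Egr3, Egr4 and Nr4a1, and upACSS2 mouse 12 in Egr1, Egr2, Egr4 and Nr4a1. Over the 8 mouse groups the mouse highest in Egr1 was also the highest in Nr4a1 in 7, in Egr2 and Egr4 in 6, in Egr3 and Nr4a2 in 4 and in Nr4a3 in 1. After each group's mean was taken off, Pearson r with Egr1 over the 55 mice was 0.96 for Nr4a1, 0.83 for Egr4, 0.82 for Egr2, 0.78 for Egr3, 0.30 for Nr4a2 and 0.01 for Nr4a3. These r values are a description, with no test, since the mice of a group share a table and may share other collection conditions. The difference between replicate sets of the aged mice, described below, was not taken off.

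**Figure D4:**
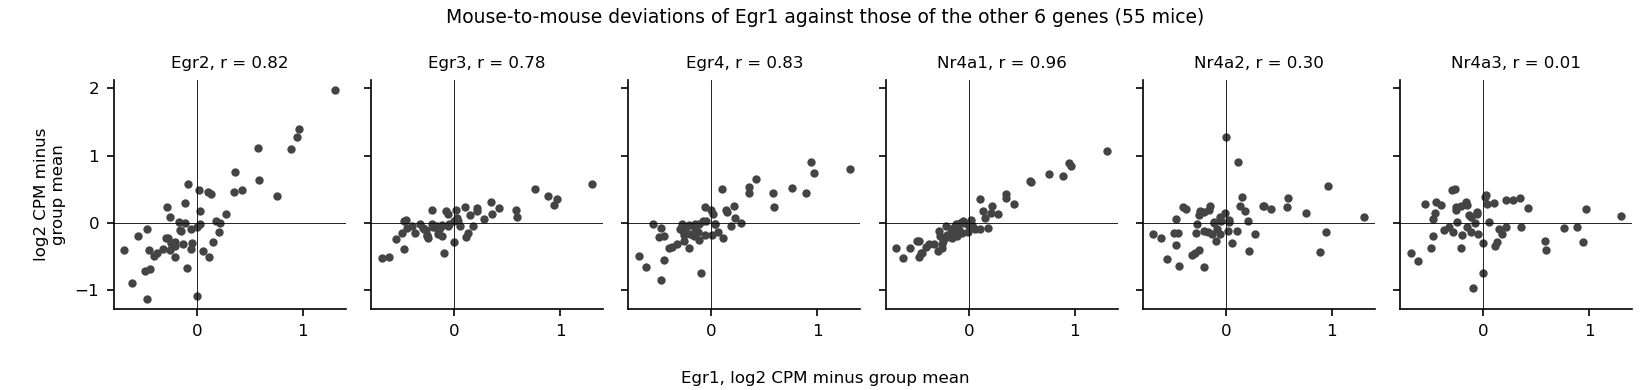
Deviation of log2 CPM from the group mean for Egr1 (x) against the other 6 genes (y), 1 point a mouse, 55 mice. Nr4a1 follows Egr1 nearly along a line (r 0.96), while Nr4a2 (0.30) and Nr4a3 (0.01) spread without one. The difference between replicate sets of the aged mice was not taken off.

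Nr4a2 had its own high mice. In aged mice it was highest in vector mouse 3 (183 CPM) and upACSS2 mouse 1 (149 CPM), against group medians of 72.1 and 79.6 CPM. Replicates 1 to 3 of the aged mice differed from replicates 4 to 12: Nr4a2 was lower in the latter by 0.54 on the log2 scale (edgeR adjusted p 0.0149), and 39.9% of all genes were called between these sets of mice. None of the other 6 genes was called between them, so the 1 of 7 is not above that share. The split was made after the data were seen, and both of the high mice named above are in replicates 1 to 3. Its p therefore gives no independent support for a trait of Nr4a2. With replicates 4 to 12 alone the log2 fold change of the 7 genes with upACSS2 lay between 0.04 and 0.18, and 0 of 7 were called.

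Across the 22 groups the 4 stimulated groups held the highest means of every one of the 7 genes. For 6 of them no other library reached the lowest stimulated library: the highest other library was 424 against 695 CPM for Egr1, 23.6 against 64.3 for Egr2, 194 against 224 for Egr3, 84.2 against 381 for Egr4, 202 against 634 for Nr4a1 and 622 against 625 CPM for Nr4a3. For Nr4a2 the highest other library, an aged vector mouse at 183 CPM, was above the lowest stimulated library at 98.7 CPM. Next in order came the 10-month mice for Egr2, Egr3, Egr4 and Nr4a1, the aged mice for Nr4a2, day 21 neurons with tau and no virus for Egr1, and day 9 neurons for Nr4a3. Of the 21 neighbouring pairs in the order of group means, libraries did not overlap in 3 for Egr1, 1 for Egr2, 5 for Egr3, 1 for Egr4, 3 for Nr4a1, 2 for Nr4a2 and 3 for Nr4a3, and all other neighbours overlapped. The groups were ordered by these same means and other genes were not counted in this way, so these counts are a description. Levels across tables are approximate, since the tables name 25239 or 55367 genes.

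Per kilobase the mice kept Egr1 first and Egr2 last in all 4 sets, at medians of 33.6 and 1.49 CPM per kilobase in aged mice and 49.3 and 3.39 at 10 months. Nr4a1 came second at 10 months (42.0), where it was at 22.2 in aged mice, 19.4 in PS19 mice at 1 month and 22.4 at 6 months. The 10-month mice were taken after conditioning and the others after recall, and age, strain, tissue, virus dose and virus time differ as well, so these cannot be told apart.

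The genes whose log2 CPM followed the family means most closely over the 22 group means, by Pearson r among 13320 genes, were for Egr Junb (0.99), Csrnp1 (0.98), Otud1 (0.97), Fosb (0.97) and Dusp6 (0.96). For Nr4a they were Fosb (0.97), Errfi1 (0.95), Npas4 (0.95), Arl4d (0.94) and B3galt2 (0.94). Over the 55 mice, among 13137 genes, Arc (0.93), Junb (0.89), Dusp6 (0.79), Fos (0.77) and Kctd1 (0.76) were closest to Egr, and Arc (0.74), Cx3cl1 (0.73), Ppp1r12a (0.72), Midn (0.70) and Sorcs3 (0.69) to Nr4a. Junb and Dusp6 stand in both Egr lists. Over the 55 mice r was 0.29 for Nr4a1 with Nr4a2, -0.03 for Nr4a1 with Nr4a3 and -0.28 for Nr4a2 with Nr4a3. The Nr4a mean over the mice is therefore not a pattern that the 3 genes share. These r values are a description: the stimulated groups share a table, and so do the mice of a set. The difference between the replicate sets of the aged mice was not taken off.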

How the data were processed

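RNA of 98 libraries had been sequenced and counted per gene by the authors, who deposited 6 tables of raw counts. The submitters' processing notes name STAR, featureCounts, HTSeq and DESeq2, with no role or version, and the build mm10; the annotation is not given in the sources used here. Groups came from sample titles, since the treatment entry contradicts the title for several groups. Rows without a gene name (6.13% to 8.74% of counts in the cultures without virus, 0% elsewhere) were left out. All table columns were used.

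The 7 genes and the gene lists were chosen with earlier results of these data known. Each comparison was fitted on a whole table (day 9 and day 21 neurons apart for tau and virus and together for culture day, stimulated with unstimulated day 21 neurons together over shared symbols) with edgeR 4.0.16 in R 4.3.3: TMM scaling, filterByExpr, quasi-likelihood test and Benjamini-Hochberg adjustment over all genes at 0.05. Fold changes are the fitted ones, and SE is the log2 fold change over the root of F. CPM used TMM-scaled library sizes, and log2 CPM a prior count of 2. Other settings were DESeq2 1.42.0, limma 3.58.1 voom, other scaling, no filter, a replicate block, fewer or more groups in the fit and leaving out each library. The split of aged mice into replicates 1 to 3 and 4 to 12 was added after the data were seen. Each fit was tested on simulated data. No 2 libraries of a group were alike within sampling noise. Named genes were the 7, Acss2, at most 4 genes a list and family of comparisons with the lowest p, and the 5 most correlated with each family's mean; Maff and Nab1 complete a count. The full count of upstream factors for tau on day 9 is not reported here. Totals of 5075100 to 39985500 counts set the precision, which is lowest for Egr2. Same-numbered libraries deviated together (every r over 0.1) in 4 comparisons. These were stimulation in upACSS2 PBS, tau with vector and upACSS2 with tau in stimulated neurons, and tau without virus. Elsewhere at least 1 r was below 0.1, though single r values reached 0.60 for stimulation in vector tau and 0.47 in vector PBS. This rests on the data, not on the labels.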

Additional observations from a re-analysis of the deposited data

Results flagged for a closer look

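Of 49 checks of 1 gene in 1 group of 4 to 6 libraries, 2 found a library far from the others of its group; chance gives about 2.45. Nr4a3 was at 176 CPM in 10-month upACSS2 mouse 5, where the next mouse was at 140 CPM and the lowest at 124 CPM. Nr4a1 was at 112 CPM in PS19 1-month vector mouse 4, where the next mouse was at 68.8 CPM and the lowest at 63.2 CPM; the same mouse was the highest of its group in Egr1, Egr2, Egr4 and Nr4a2. No difference of effects between groups passed the adjusted threshold.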

How the results depend on the processing

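Of the 28 stimulation calls 28 held with DESeq2, RLE scaling, no filter, the replicate block, limma voom and each library left out, and 27 in fits of only the groups compared. Culture day gave 15 calls and 14 to 17 elsewhere. For tau on day 9 (5 calls) the count was 2 with only the groups compared, 0 with all 24 unstimulated libraries and 0 to 5 with libraries left out. For upACSS2 on day 9 (1 call) it was 2 with DESeq2, 4 with no filter on low counts, 2 with the replicate block, 0 with all 24 libraries and 0 to 2 with libraries left out. For the upACSS2 by tau and by time differences (0 calls) it was 2 with no filter (Egr4 and Nr4a1 on day 9) and 0 to 2 with libraries left out. For upACSS2 on day 21 (0 calls) it was 1, Egr4, with all 24 libraries. For tau in stimulated neurons (2 calls) it was 0 with only the groups compared, 0 with limma voom and 0 to 3 with libraries left out. The replicate block gave 3 there; beside that and the 2 on day 9 above, it moved no count by over 1.5 times. Egr2 between the days in upACSS2 PBS neurons ran from -0.11 to 2.04 with libraries left out, against 1.60. Unscaled library sizes moved a group's mean log2 CPM by at most 0.0949. The cause of these shifts was not tested. Depth limits Egr2 most.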
